A study of Mus musculus with 9 samples.

Results

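The collagen genes are the mouse genes whose symbol is Col followed by a number, the letter a and a second number, such as Col1a1. RefSeq lists 44 of them, and all 44 were measured on the arrays, among 22180 genes in all. They were compared between the spinal cords of 5 control embryos and those of 4 embryos with the genotype Hnf6-/-;Oc2-/-, called OC mutant, all of them collected at e11.5. The mutants lack both alleles of Hnf6 (Onecut1) and of Oc2 (Onecut2) in the whole embryo, and the study states that Oc3 (Onecut3) is also lost in their developing spinal cord, so that no OC factor remains. The labels describe the other group only as control, and they give neither strain nor sex. The study compared the spinal cord transcriptomes to find genes downstream of the OC factors that may act in V2 interneuron differentiation and migration. Total RNA of each cord was read on an Affymetrix MoGene 2.0 ST array, whose probes lie along the exons of a gene, and the values are log2 signals.

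Collagens are secreted proteins whose chains wind around each other into a rope-like helix. Fibrillar collagens assemble into the cable-like fibrils of skin, bone, tendon and cartilage. Type IV collagens form the sheet-like network of basement membranes, the thin matrix that surrounds the neural tube and every blood vessel. The remaining classes coat fibrils, form beaded filaments or short-chain networks, anchor epithelia or span the cell membrane. In the embryonic spinal cord neurons and their progenitors lie inside a basement membrane, and fibrillar collagens are known mainly from the mesenchyme, cartilage precursors, meninges and vessel walls that surround or enter the cord. By these roles the 44 genes fell into 11 fibrillar, 6 basement membrane and 27 other collagen genes.

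Col4a1 and Col4a2 encode the chains of the most widespread type IV collagen and share 1 promoter region, which is shown here. The order of their values was the same in 31 of 36 pairs of arrays, as described below with the other chain pairs. For Col1a1 and Col1a2, on chromosomes 11 and 6, it was the same in 34, and for Col4a3 and Col4a4, both on chromosome 1, in 14. Col4a3 and Col4a4 were dim, with means under 5.23, the lowest of the array medians. A part of the promoter in the order of these gene pairs was not tested. In RefSeq (GRCm38.p6) the start sites of Col4a1 and Col4a2 lie 21 bases apart on opposite strands of chromosome 8. Each window below runs from 250 bases before the start of the gene to 50 bases after it, in the direction of that gene, with the 78 bases that both windows hold in capitals. The Col4a1 window is chr8:11312777-11313076 on the minus strand, and the Col4a2 window is chr8:11312555-11312854 on the plus strand.
Col4a1: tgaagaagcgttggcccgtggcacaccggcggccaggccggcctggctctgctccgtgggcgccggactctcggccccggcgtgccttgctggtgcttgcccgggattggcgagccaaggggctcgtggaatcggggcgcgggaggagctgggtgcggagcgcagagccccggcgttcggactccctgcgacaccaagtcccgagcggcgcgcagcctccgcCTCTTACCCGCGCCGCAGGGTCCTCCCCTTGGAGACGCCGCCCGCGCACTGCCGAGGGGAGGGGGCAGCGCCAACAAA
Col4a2: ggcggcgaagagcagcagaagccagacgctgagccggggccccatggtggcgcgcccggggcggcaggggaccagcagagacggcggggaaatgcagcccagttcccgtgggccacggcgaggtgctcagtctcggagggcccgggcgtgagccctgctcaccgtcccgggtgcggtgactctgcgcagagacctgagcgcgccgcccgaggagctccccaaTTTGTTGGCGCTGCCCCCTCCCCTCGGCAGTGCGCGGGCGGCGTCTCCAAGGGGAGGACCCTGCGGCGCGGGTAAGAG
The windows hold 74.0% and 73.7% G and C, and the capitals of 1 are the reverse complement of those of the other. Col4a5 and Col4a6, another type IV pair on opposite strands, of the X chromosome, start 1343 bases apart, and their windows share no base. Of the 44 collagen genes, 35 had such a window, and some had several, which gave 38 windows. Col4a3 had none, so its start site was not compared with that of Col4a4. The GC box GGGCGG, searched on both strands like the other motifs, was found in 60.5% of the 38 windows and in 35.7% of 32851 windows of the same length from all genes. The CCAAT box was found in 34.2% of the collagen windows and 37.4% of all windows, and the TATA core TATAAA in 13.2% and 13.6%. The letters ATTGAT, the core of the site that Onecut proteins bind, were found in 1 collagen window, that of Col6a4, or 2.63%, and in 7.54% of all windows. These matches are letters in a window and were not tested for binding.

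The mutants themselves differed from the controls in the OC genes. Onecut2 was 0.84 log2 units lower and Onecut3 0.81 lower in the mutants, and in both genes the groups did not overlap (p = 0.00794 by the exact permutation test, two-sided, which can give no smaller p here; limma adjusted p = 0.127 and 0.0624). Onecut1 overlapped between the groups, with a log2 fold change of −0.11 (SE 0.13). A probe outside the deleted part of a gene would not show its loss, but where the Onecut1 probes lie was not tested. Array medians ran from 5.23 to 5.31. Markers of spinal tissue were present on every array, with a mean log2 signal from 7.81 to 8.11 for 10 neural progenitor genes and from 8.69 to 9.26 for 9 neuron genes. Control 1 stood apart, with the highest level of mesenchyme and cartilage markers and the lowest of neuron markers, and the values without it are given below. The mean of 4 Y-linked genes was 3.38 and 3.57 on controls 2 and 3 and 6.83 to 7.01 on the others, all 4 mutants among them. Sex thus differed between the control embryos and was not balanced between the groups. A fit with that mean as a covariate was among the alternatives. In that fit 6.24% of all genes had an unadjusted p under 0.05 (limma), beside 9.74% in the main fit.

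None of the 44 collagen genes differed between OC mutant and control spinal cords at an adjusted p under 0.05 (limma, with Benjamini-Hochberg adjustment over all genes), where 0.0225% of all genes, 5 genes, did. At an unadjusted p under 0.05, no collagen gene was higher and 1, Col6a6, was lower, which is 2.27% of the collagen genes beside 9.74% of all genes. In no collagen gene did the groups fail to overlap, while the groups did not overlap in 3.94% of all genes, with the mutants higher in 2.15% and lower in 1.79%. The log2 fold changes, OC mutant minus control, lay between −0.33 for Col6a5 and 0.38 for Col8a2. Their median was −0.03, with 26 negative and 18 positive values, and over all genes the median was 0.0045 with 48.7% negative. The 95% intervals also bound the size of a difference. They stayed within 1 log2 unit on either side of 0 for all 44 genes, as they did for 21921 of all 22180 genes. Within 0.5 they stayed for 37 of the 44, or 84.1%, beside 78.4% of all genes. For 10 collagen genes the mean signal was under the lowest array median, 5.23, and array background can compress the differences of such dim genes. In RNA from whole cords, fewer cells of a type and less RNA per cell cannot be told apart.

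**Figure D1:**
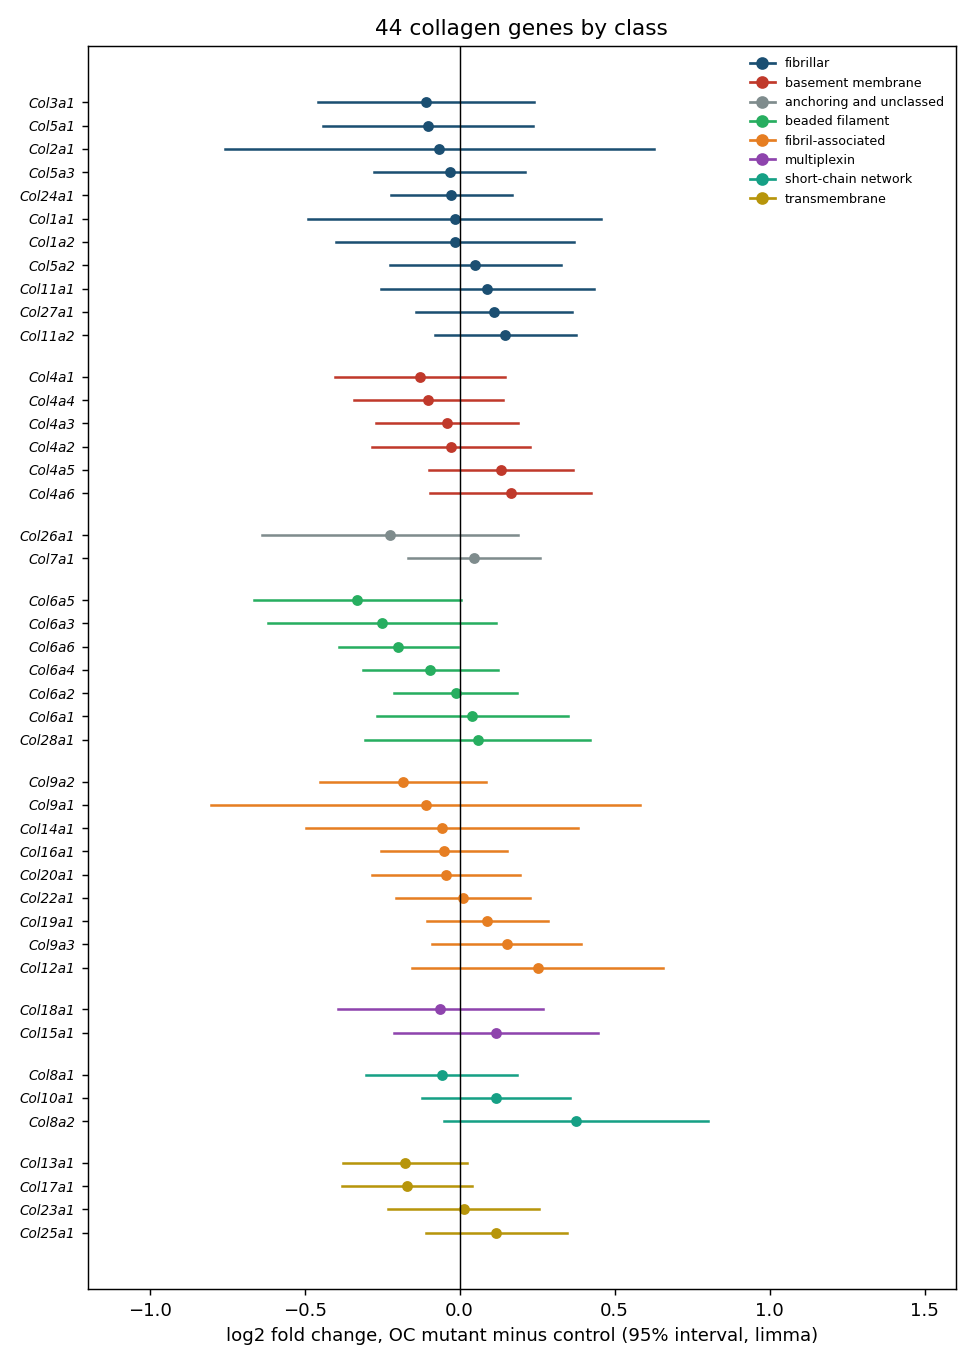
Log2 fold changes of the 44 collagen genes, OC mutant minus control, by class on the vertical axis, with 95% intervals from limma. The intervals of 43 genes cross 0, that of Col6a6 ends just below it, and the values run from −0.33 for Col6a5 to 0.38 for Col8a2.

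The 11 fibrillar genes had a median log2 fold change of −0.02, and 7 were negative and 4 positive. Col1a1 and Col1a2 encode the chains of type I collagen, the main fibril of bone, skin and tendon. Col1a1 had log2 signals of 9.04, 8.73, 8.53, 7.94 and 8.63 on control arrays 1 to 5 and 8.63, 8.47, 8.13 and 9.01 on mutant arrays 1 to 4. Col1a2 had 9.02, 8.65, 8.37, 8.12 and 8.53 in the controls and 8.44, 8.42, 8.33 and 8.91 in the mutants. In both genes control 1 and mutant 4 were the highest arrays and control 4 was the lowest, so that the controls spanned the whole range of the mutants. The OC mutant level was 0.989-fold that of control for Col1a1, with a 95% interval from 0.713 to 1.37, and 0.990-fold for Col1a2, from 0.758 to 1.29 (limma adjusted p = 0.990 and 0.988). Col3a1, the type III chain of elastic tissues and vessel walls, had 8.83, 8.46, 8.24, 7.94 and 8.42 in the controls and 8.46, 8.16, 8.08 and 8.38 in the mutants. The difference of Col3a1 was −0.11 (SE 0.16), with the same control arrays at either end.

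Col2a1 encodes type II collagen, the fibril of cartilage and of the sheath of the notochord. Its log2 signal was 8.56 on control 1 and between 6.96 and 7.29 on the other 4 controls, and it was 6.98, 6.91, 7.53 and 7.91 on mutants 1 to 4. Control 1 thus stood above all other arrays, and mutants 3 and 4 stood above the other 4 controls. The difference between the group means was −0.07 (SE 0.32), with an interval from −0.76 to 0.63, the widest of the fibrillar genes, and without control 1 it was 0.22. Col11a1 and Col11a2, type XI chains that join type II fibrils, had differences of 0.09 (SE 0.16) and 0.15 (SE 0.10), the latter the largest positive one among fibrillar genes. Col11a2 signals were 5.39 on control 1, between 4.93 and 5.23 on the other controls and 5.29, 5.50, 5.24 and 5.29 on mutants 1 to 4. Although 4 controls lay below every mutant array, control 1 lay above 3 of the mutants, and the gene missed the threshold (limma adjusted p = 0.675).

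The type V chains, which set the width of type I fibrils, also overlapped. Col5a1 had a difference of −0.10 (SE 0.15), Col5a2 of 0.05 (SE 0.13) and Col5a3 of −0.03 (SE 0.11). Col5a3 was even across the controls, from 5.54 to 5.72, and ran from 5.28 on mutant 4 to 5.85 on mutant 3. Col24a1 had a difference of −0.03 (SE 0.09), and Col27a1, a collagen of developing cartilage, of 0.11 (SE 0.11). Adjusted p-values of the 11 fibrillar genes ran from 0.675 to 0.990. A second, dimmer feature was on the array for Col1a2, with a difference of −0.07 (SE 0.15), and for Col5a1, with −0.31 (SE 0.15).

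**Figure D2:**
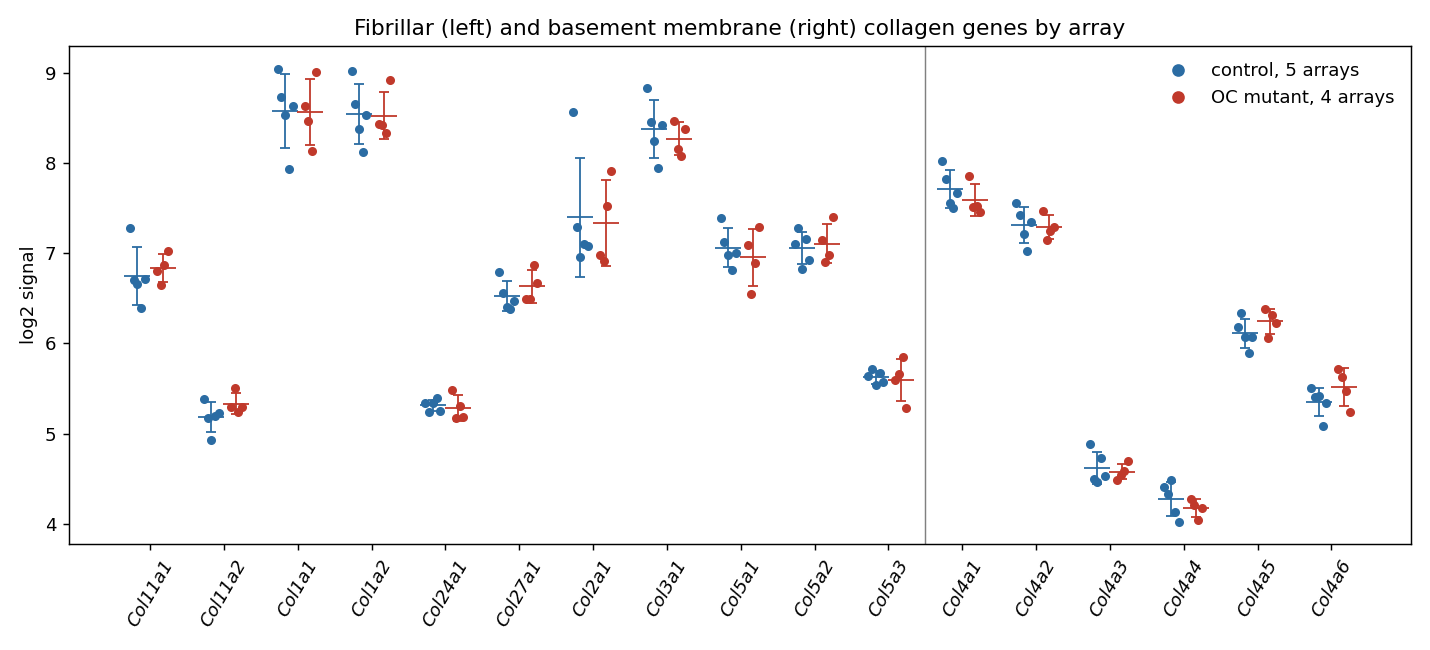
Log2 signal of each fibrillar and basement membrane gene on each array, control in blue (5 arrays) and OC mutant in red (4 arrays), in array order within a group, with the mean as a horizontal bar and the SD as whiskers. The groups overlap in all 17 genes, and the control point of Col2a1 at 8.56 stands far above the other controls.

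The 6 basement membrane genes had a median log2 fold change of −0.03, and 4 were negative and 2 positive. Col4a1 had signals of 8.02, 7.83, 7.55, 7.51 and 7.67 in the controls and 7.85, 7.51, 7.53 and 7.46 in the mutants. Col4a2 had 7.55, 7.43, 7.22, 7.02 and 7.35 in the controls and 7.46, 7.14, 7.25 and 7.29 in the mutants. Control 1 was the highest array for both, and mutant 1 lay above the other mutants for both. The level in the mutants was 0.915-fold that of control for Col4a1, with an interval from 0.757 to 1.11, and 0.982-fold for Col4a2, from 0.823 to 1.17 (limma adjusted p = 0.783 and 0.967).

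Col4a5 and Col4a6, chains of another type IV network, were the 2 positive members. Col4a5 had 6.18, 6.33, 6.07, 5.90 and 6.07 in the controls and 6.38, 6.06, 6.31 and 6.22 in the mutants, a difference of 0.13 (SE 0.11). Col4a6 had 5.51, 5.41, 5.42, 5.09 and 5.34 in the controls and 5.72, 5.63, 5.47 and 5.25 in the mutants, a difference of 0.17 (SE 0.12). For both the lowest array was control 4 and the highest was mutant 1, and the groups overlapped. Col4a3 and Col4a4, chains of the kidney glomerular basement membrane, had means under the lowest array median, with differences of −0.04 (SE 0.10) and −0.10 (SE 0.11). All 6 intervals lay within 0.5 log2 units of 0, as did 10 of the 11 fibrillar and 21 of the 27 other intervals. Adjusted p-values of the type IV genes ran from 0.684 to 0.967.

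Of the 27 other collagen genes 15 were negative and 12 positive, and their median log2 fold change was −0.04. The type VI chains and their relative Col28a1, which form beaded filaments around cells, held the gene with the smallest p. Col6a6 had log2 signals of 5.31, 5.28, 5.38, 5.26 and 5.25 in the controls and 5.27, 5.14, 4.96 and 5.03 in the mutants. Mutant 1 lay among the controls, and the other 3 mutants lay below all of them. The difference was −0.20 (SE 0.09), or 0.872-fold with an interval from 0.764 to 0.996 (limma p = 0.0441, adjusted p = 0.502; exact two-sided permutation test, p = 0.0238). The unadjusted limma p was 0.0142 without mutant 1 and lay between 0.0550 and 0.125 when any of the other 8 arrays was left out. Col6a5, a dim gene, had the most negative difference of all collagens, −0.33 (SE 0.15), with 4.04, 3.95, 3.42, 4.06 and 3.51 in the controls and 3.54, 3.44, 3.25 and 3.64 in the mutants. Controls 3 and 5 lay among the mutants, and the adjusted p was 0.518 (limma).

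The chains that build the common type VI heterotrimer did not share a direction. Col6a1 and Col6a2 had differences of 0.04 (SE 0.14) and −0.01 (SE 0.09). Col6a3 was at −0.25 (SE 0.17), with mutant 3 at 5.63 and the other 8 arrays from 5.98 to 6.61. Of all 7 beaded filament genes 5 were negative, and 4 of the 7 had means under the lowest array median. Averaged over the 7 genes, the log2 signal was 5.52, 5.44, 5.40, 5.43 and 5.47 in the controls and 5.39, 5.37, 5.21 and 5.39 in the mutants. The mutant means thus lay below the control means, narrowly, with the lowest control at 5.396 and the highest mutant at 5.394. In every other class the means overlapped, and the class means were not tested.

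Among the short-chain network genes, Col8a2, which with Col8a1 forms the network of the corneal and vascular endothelial matrix, had the largest positive difference, 0.38 (SE 0.19). Its signals were 5.44, 4.99, 5.18, 4.99 and 5.68 in controls and 5.18, 6.02, 5.41 and 5.91 in mutants. Mutants 2 and 4 were the highest of the 9 arrays, whereas mutants 1 and 3 lay within the control range, and the adjusted p was 0.561 (limma). Col8a1 had a difference of −0.06 (SE 0.11). Of the multiplexins, basement membrane collagens that also carry sugar chains, Col15a1 was at 0.12 (SE 0.15) and Col18a1, the precursor of endostatin, at −0.06 (SE 0.15). When these 2 genes were counted with the basement membrane class, the medians of that class and of the other class kept their values of −0.03 and −0.04.

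The fibril-associated genes ran from −0.18 (SE 0.12) for Col9a2 to 0.25 (SE 0.19) for Col12a1. Col12a1, which coats type I fibrils, had 7.40, 7.03, 7.15, 6.96 and 7.23 in the controls and 7.35, 6.87, 7.42 and 7.98 in the mutants, with mutant 3 just above and mutant 4 well above the highest control. Col9a1, a coat of cartilage fibrils, ran from 5.26 to 6.78 in the controls and from 5.07 to 6.28 in the mutants, the widest spread of this class, with a difference of −0.11 (SE 0.32). None of the 4 membrane-spanning genes passed the unadjusted threshold. Col13a1, found at the neuromuscular junction, was at −0.18 (SE 0.09) and Col17a1, found in hemidesmosomes, at −0.17 (SE 0.10), with unadjusted limma p-values of 0.0784 and 0.102 and adjusted p-values of 0.560 and 0.593. Col25a1, which is expressed in muscle and needed for motor axons to enter it, was at 0.12 (SE 0.10), and Col23a1 at 0.01 (SE 0.11). Col26a1 had 7.88, 7.23, 7.03, 6.92 and 7.15 in the controls and 6.83, 6.88, 6.95 and 7.41 in the mutants, a difference of −0.22 (SE 0.19). Without control 1, the highest array, that difference was −0.06.

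The spread between arrays of a group was larger for fibrillar genes than for the other classes. The median SD within groups was 0.262 for fibrillar genes, 0.168 for basement membrane genes and 0.163 for the others, beside 0.176 for all genes. Control 1 was the highest of the 9 arrays for 14 of the 44 collagen genes, or 31.8%, beside 13.4% of all genes, and it was the lowest for none, beside 12.0% of all genes. Of these 14 genes, 6 were fibrillar and 3 were type IV. Control 4 was the lowest array for 13 of 44, or 29.5%, beside 9.93% of all genes, and these included 5 of the 11 fibrillar and 3 of the 6 type IV genes. These 2 arrays of the same group were thus the most frequent highest and lowest arrays for the fibrillar and for the type IV genes. They did not mark both ends in every gene. Col2a1 and Col5a1 were lowest on mutant 2, and Col4a5 and Col4a6 were highest on mutant 1. Among the 27 other genes, controls 1 and 4 were each the highest array for 5. Control 4 was also the lowest for 5 of these genes, and mutants 2 and 3 were the lowest for 6 each.

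**Figure D3:**
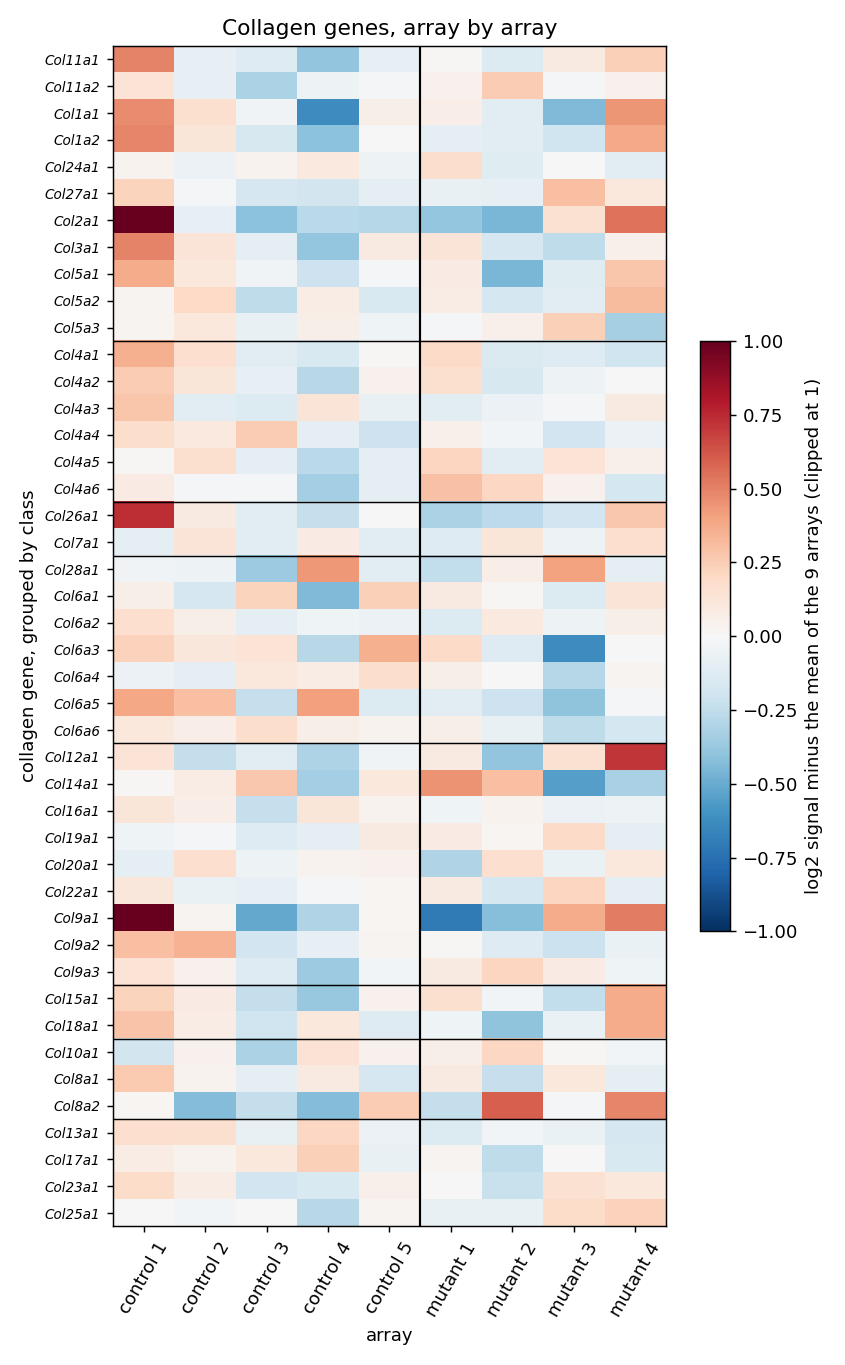
Log2 signal of each collagen gene (rows, grouped by class) on each array (columns) minus the mean of that gene over the 9 arrays, with red above and blue below the mean and the colour scale clipped at 1. The column of control 1 is red in most fibrillar and type IV genes, that of control 4 is mostly blue, and no block separates the 4 mutant columns from the controls.

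Averaged over the fibrillar genes, the log2 signal was 7.31, 6.99, 6.80, 6.74 and 6.89 on controls 1 to 5 and 6.95, 6.81, 6.92 and 7.12 on mutants 1 to 4. The type IV mean was 6.09, 5.97, 5.87, 5.73 and 5.83 in the controls and 6.03, 5.85, 5.86 and 5.85 in the mutants. Both classes had control 1 as the highest array and control 4 as the lowest, but differed among the mutants. Mutant 4 was the highest mutant for 6 of the 11 fibrillar genes, and mutant 1 for 5 of the 6 type IV genes, where these arrays were the highest mutant for 21.3% and 22.0% of all genes. The SD of the class mean within groups was 0.190 for fibrillar, 0.120 for basement membrane and 0.0856 for other genes. The group means of each class, 6.95 and 6.95 for fibrillar, 5.90 and 5.90 for type IV and 5.80 and 5.77 for the other genes, in control and in OC mutant, lay closer together than that.

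Markers of mesenchyme and cartilage precursors had their highest means on the same 2 arrays as the fibrillar genes. Of 22 such genes, 21 were measured, 7 of them with a mean under the lowest array median. Their mean log2 signal was 6.91 on control 1, between 5.74 and 6.03 on the other controls and 5.61, 5.71, 6.10 and 6.28 on mutants 1 to 4, so control 1 was the highest and mutant 4 the next, as for the fibrillar mean. The lowest arrays were mutants 1 and 2 for these markers but control 4 for the fibrillar mean. Of the 21 genes, 17 were negative in the mutants and 2, Scx at −0.42 and Tcf15 at −0.21, had an unadjusted p under 0.05, or 9.52% beside 4.93% of all genes in that direction. Control 1 was the highest array for 16 of the 21 marker genes, and without it 11 were negative and none passed that threshold, with Scx at −0.26 and Tcf15 at −0.18. Pax1, a marker of the vertebral precursor, had 6.71 on control 1 and 4.70 to 5.51 on the other controls. The mean of 14 endothelial markers was 7.11, 7.01, 6.85, 6.63 and 6.89 in the controls and 6.83, 6.74, 6.86 and 6.95 in the mutants. Control 1 was the highest and control 4 the lowest, as for the fibrillar and type IV means. Among the mutants the highest was mutant 4, as for the fibrillar mean, whereas the type IV mean was highest on mutant 1. Of these 14 genes, 10 were negative in the mutants and 1 was lower at an unadjusted p under 0.05, or 7.14% beside 4.93% of all genes. Without control 1 these counts were 8 and 0. The mean of 9 measured neuron markers was lowest on control 1, at 8.69, and lay between 8.78 and 9.26 on the other arrays. Of these 9 genes, 7 were negative in the mutants and 2 of them lower at an unadjusted p under 0.05, or 22.2% beside 4.93% of all genes. Without control 1 these counts were 9 and 3. For 10 neural progenitor markers the counts were 7 and 1, and 8 and 1 without control 1. For 11 muscle markers they were 9 and 2, with and without control 1. For 6 neural crest and Schwann precursor markers they were 6 and 1, and 5 and 2 without control 1. For 7 sensory ganglion markers they were 6 and 1, and 5 and 1, and for 9 mural cell markers 7 and 1, and 5 and 0. With all arrays, the lower genes were 10% of the neural progenitor list, beside 4.93% of all genes. They were 18.2%, 16.7%, 14.3% and 11.1% of the muscle, neural crest, sensory ganglion and mural cell lists. No blood or notochord marker passed. The part of these cell types in the collagen values was not tested. Without control 1, the median difference of the fibrillar genes was 0.10 and that of the type IV genes 0.03, with 16 of the 44 collagen genes negative and still none past the adjusted threshold. Without both control 1 and mutant 4, a choice made after the values were seen, the medians were 0.01 and 0.01, and 21 genes were negative.

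**Figure D4:**
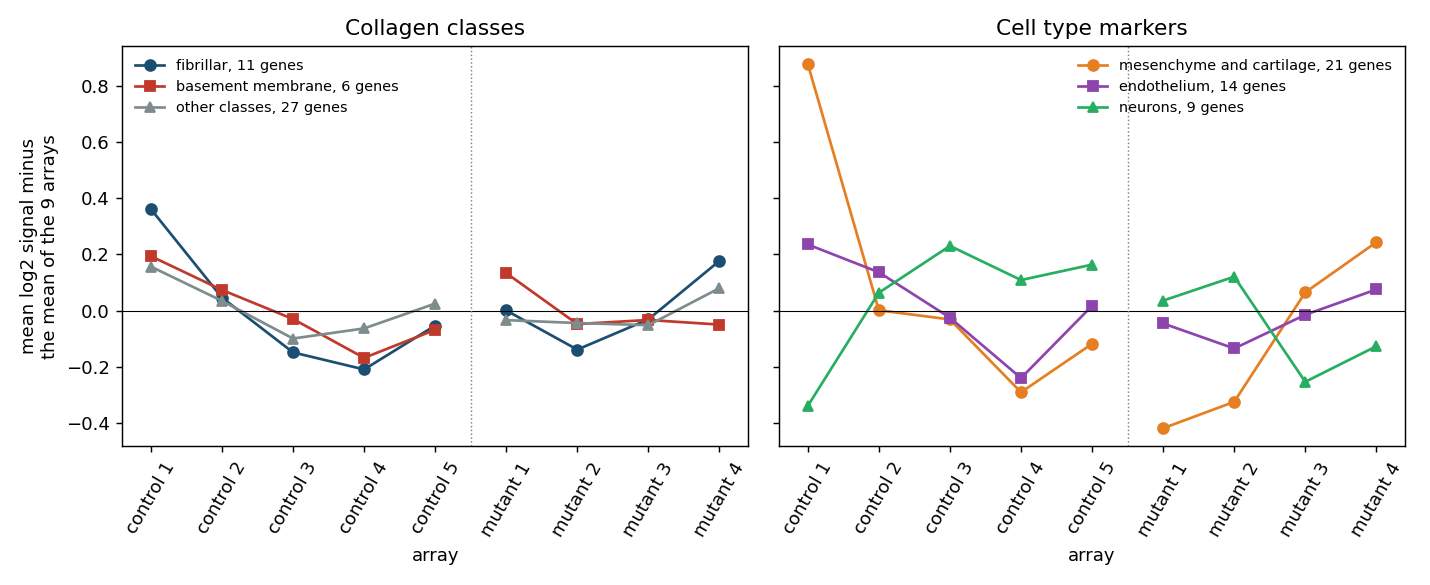
Mean log2 signal of each collagen class (left) and of markers of 3 cell types (right) on each array, minus the mean over the 9 arrays, controls left and mutants right of the dotted line. Control 1 has the highest fibrillar, type IV and mesenchyme and cartilage means and the lowest neuron mean, and the mutant points lie within the control range for the fibrillar and type IV classes.

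Collagen chains that assemble together were compared array by array, by counting in how many of the 36 pairs of arrays both genes had the same order. For Col1a1 and Col1a2 the order was the same in 34 of 36 pairs, and in all 16 pairs within a group. For Col1a1 and Col3a1 it was the same in 32, for the cartilage genes Col2a1 and Col9a1 also in 32, for Col4a1 and Col4a2 in 31 and for Col2a1 and Col11a1 in 29. In these 5 pairs of genes, levels thus followed each other over the embryos, with the 2 groups mixed along the order. Without control 1, their counts were 26, 24, 24, 23 and 21 of 28 pairs. The order was the same in 25 of 36 pairs for Col5a1 and Col5a2 and for Col11a1 and Col11a2, and in 23 for Col4a5 and Col4a6 and for Col9a1 and Col9a2. Without control 1, these counts were 21, 18, 19 and 16 of 28, so that the type V chains had the same count as Col2a1 and Col11a1. The order was the same in 20 pairs for Col9a1 and Col9a3, 16 for Col6a2 and Col6a3, 15 for Col6a1 and Col6a2, 14 for Col4a3 and Col4a4, and 11 for Col8a1 and Col8a2, and without control 1 in 13, 9, 11, 7 and 6 of 28. Col4a3 and Col4a4 were dim, with means under the lowest array median. All these counts describe 9 arrays that share their normalization and were not tested.

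**Figure D5:**
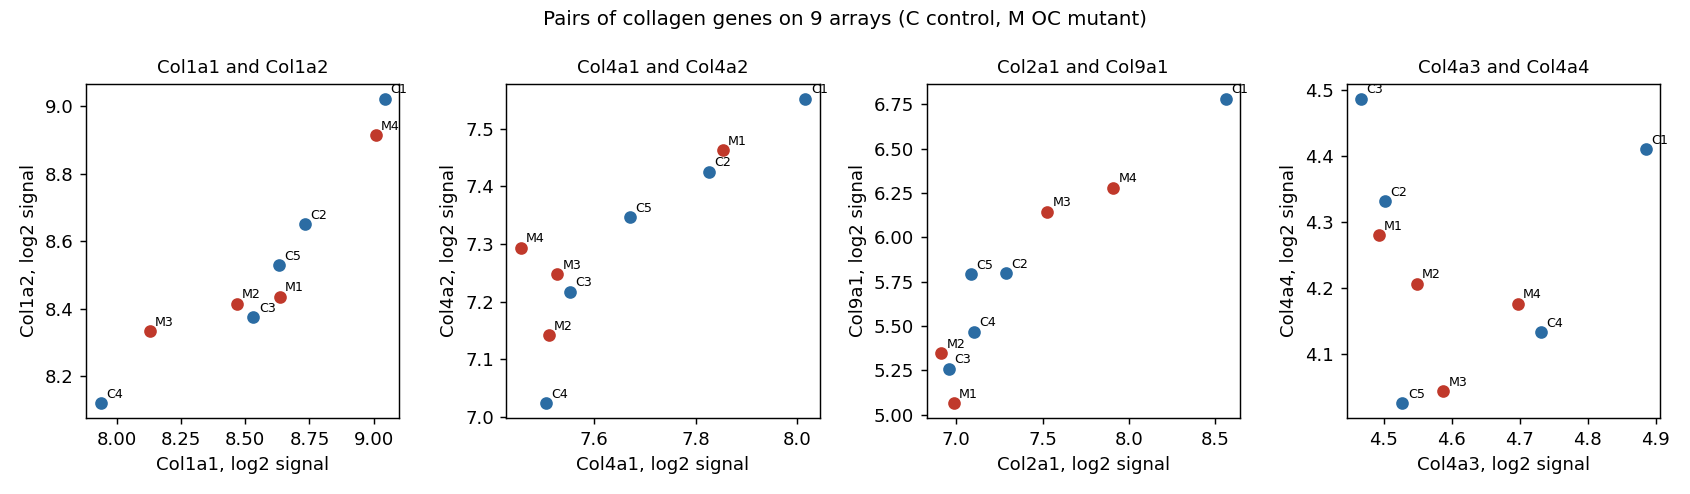
Log2 signals of 4 pairs of collagen genes on the 9 arrays, C for control in blue and M for OC mutant in red, with the array number. The points of Col1a1 and Col1a2, Col4a1 and Col4a2, and Col2a1 and Col9a1 run along a diagonal with both groups mixed, and those of Col4a3 and Col4a4 do not. Col4a3 and Col4a4 had means under the lowest array median.

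Genes that make, cut, bind or remove collagen were read from the same fit. Of 18 measured genes for chain modification and folding, 14 were negative, with a median of −0.12, and 2 were lower at an unadjusted p under 0.05, or 11.1% beside 4.93% of all genes in that direction. Control 1 was the highest array for 12 of the 18, and without it 11 were negative, with a median of −0.03, and none was lower at that threshold. Colgalt1, which adds galactose to collagen, had 7.91, 7.76, 7.86, 7.66 and 7.68 in the controls and 7.52, 7.60, 7.61 and 7.57 in the mutants. The 4 mutants lay below the 5 controls without overlap, as in 1.79% of all genes, with a difference of −0.20 (SE 0.08; limma adjusted p = 0.489), and of −0.16 without control 1. P3h3, a prolyl hydroxylase, was at −0.24 (SE 0.11; limma adjusted p = 0.510), and at −0.17 without control 1.

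Of 11 processing genes, 1 was higher at an unadjusted p under 0.05, or 9.09% beside 4.81% of all genes in that direction. Adamts3, which trims the amino end of procollagen II, had 4.60, 4.63, 5.29, 4.96 and 4.91 in the controls and 5.61, 5.41, 5.26 and 5.45 in the mutants. Control 3 lay within the mutant range and the other controls below it. The study already lists Adamts3, at 1.47-fold, among the selected candidates of its comparison of these arrays. The difference was 0.55 (SE 0.14; limma adjusted p = 0.297; exact two-sided permutation test, p = 0.0238), and it lay between 0.48 and 0.66 when each array was left out. Tll1, a protease that trims the carboxyl end, was at 0.24 (SE 0.13). None of 11 collagen receptors passed the unadjusted threshold, which 9.74% of all genes passed, with Itga11 at −0.19 (SE 0.18) and Lair1 at −0.18 (SE 0.19).

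Of 13 degradation genes, 10 were negative and 1 was lower at the unadjusted threshold, or 7.69% beside 4.93% of all genes. Timp3, an inhibitor of matrix proteases, had 9.01 on control 1, between 8.11 and 8.53 on the other controls and between 7.81 and 8.44 in the mutants, a difference of −0.40 (SE 0.18; limma adjusted p = 0.510), and control 1 was again the highest array. Without control 1 the difference was −0.26, 8 of the 13 genes were negative and none was lower at that threshold. Timp2 was at −0.19 (SE 0.11).

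Of 15 other basement membrane genes, which encode laminins, nidogens and their partners, 11 were positive, with a median of 0.07, and none passed the unadjusted threshold, beside 9.74% of all genes. The median was 0.13 without control 1 and −0.01 without mutant 4, where 8 of the 15 were negative. Lama1, the laminin chain of early embryonic basement membranes, had 7.92, 8.23, 8.28, 8.17 and 8.07 in the controls and 8.99, 8.29, 8.21 and 8.36 in the mutants, a difference of 0.33 (SE 0.15; limma adjusted p = 0.522). Mutant 1 was far above the other arrays for Lama1, as it was the highest mutant for 5 of the 6 type IV genes, and without it the difference was 0.15. Lama3 was at 0.11 (SE 0.10). Of 21 collagen-binding matrix genes, 16 were negative, with a median of −0.15, and none passed the unadjusted threshold, beside 9.74% of all genes. Control 1 was the highest array for 9 of the 21, and without it 13 were negative, with a median of −0.03, and 1 was higher at that threshold. Sparc, which binds collagen and assists its assembly, was at −0.24 (SE 0.13), and Tnxb at −0.17 (SE 0.09; limma adjusted p = 0.570 and 0.574).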

How the data were processed

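Total RNA of 5 control and 4 OC mutant e11.5 spinal cords was labelled with the WT PLUS kit and hybridised to MoGene 2.0 ST arrays, and the authors used Expression Console and R. The authors deposited log2 values for 41345 features. The way background was corrected and probes were summarised and normalized was not given in the sources used here. Levels of different genes were therefore not compared. The series description counts 5 mutant embryos, of which 4 are analysed here. A platform annotation gave 23521 features 1 symbol, 1820 several symbols, and does not list 16004. Through gene IDs, 23328 features matched RefSeq (GRCm38.p6). Where a symbol had several features, as 1082 did, the one with the highest mean was used, which left 22180 genes, with no filter on dim genes.

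OC mutant and control arrays were compared with limma 3.58.1 (R 4.3.3), by lmFit and eBayes over all genes and without covariates, at 4.47 prior degrees of freedom. Benjamini-Hochberg adjustment ran over all genes, with a threshold of 0.05. Intervals are at 95%. Single genes were also tested by exact two-sided permutation over 126 assignments. Named were all fibrillar and type IV genes, other collagens at an unadjusted p under 0.05 or with the largest difference of their class, and the partner genes of smallest p. A few other collagens were named after their values were seen. Members and lists were chosen with earlier results of these data known. The fit was tested on simulated data. The number of arrays limits the precision. Alternatives were other features, filters, normalizations and variance settings, array weights, a replicate block, a covariate of Y-linked genes, and each array left out. The values of partner and marker lists with an array left out, and those without both control 1 and mutant 4, were added after the data were seen, as were the alternatives for collagens outside the naming rule.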

Additional observations from a re-analysis of the deposited data

Results flagged for a closer look

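In 3 of 88 groups of arrays (44 genes in control and in OC mutant) 1 array lay farther from the rest than the critical share of 0.71 of the range that Dixon's test sets for 5 arrays, and chance flags about 1 in 20 groups. Col2a1 on control 1 had a log2 signal of 8.56, with the other controls from 6.96 to 7.29, a gap of 0.795 of the range. Col25a1 on control 4 had 5.71, with the others from 5.96 to 6.01, a gap of 0.815. Col16a1, a fibril-associated collagen, had 5.12 on control 3, with the others from 5.39 to 5.47, a gap of 0.761.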

How the results depend on the processing

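No collagen gene passed the adjusted threshold under any alternative (limma), and the sign of 22 of the 44 collagen genes turned when 1 array or another was left out, of 10 without control 1. The count of genes lower at an unadjusted p under 0.05, 1 as reported, was 2 after quantile normalization, after centring on array medians and without moderation, and 0 with trend and robust settings, with the Y-linked covariate and without control 1 and mutant 4, where 1 gene was higher. Leaving out each array gave 0 to 2 lower, 0 to 1 higher and 16 to 29 negative genes, with 16 without control 1 and 17 without mutant 2. The medians then ran from −0.05 to 0.10 for fibrillar, −0.06 to 0.03 for basement membrane and −0.04 to 0.03 for other genes. The sign turned after quantile normalization for Col22a1 (−0.0043) and Col23a1 (−0.0048), and after centring for the same 2 genes (−0.0072 and −0.0059). It turned with array weights for Col1a1 (0.049), Col1a2 (0.041), Col2a1 (0.060), Col4a3 (0.0014) and Col18a1 (0.00022), and with the covariate for Col1a1 (0.026), Col14a1 (0.037), Col22a1 (−0.038), Col23a1 (−0.021) and Col28a1 (−0.062). Without control 1 and mutant 4 it turned for 9 genes, Col24a1 (0.013), Col2a1 (0.032), Col4a2 (0.031), Col5a2 (−0.035), Col5a3 (0.076), Col14a1 (0.036), Col6a2 (0.0052), Col7a1 (−0.020) and Col8a1 (0.021). The cause was not tested. When each array was left out, values that turned ran from −0.18 to 0.13 for Col1a1, −0.14 to 0.11 for Col1a2, −0.26 to 0.22 for Col2a1, −0.22 to 0.0040 for Col3a1, −0.21 to 0.031 for Col5a1, −0.047 to 0.12 for Col5a2, −0.12 to 0.073 for Col5a3, −9.2e-05 to 0.22 for Col11a1, −0.091 to 0.0097 for Col24a1, −0.099 to 0.033 for Col4a2, −0.080 to 0.025 for Col4a3, −0.066 to 0.11 for Col6a1, −0.047 to 0.030 for Col6a2, −0.00036 to 0.099 for Col7a1, −0.11 to 0.0079 for Col8a1, −0.30 to 0.13 for Col9a1, −0.22 to 0.12 for Col14a1, −0.20 to 0.060 for Col18a1, −0.11 to 0.048 for Col20a1, −0.057 to 0.074 for Col22a1, −0.034 to 0.091 for Col23a1 and −0.065 to 0.17 for Col28a1. Same-numbered arrays did not deviate together, with correlations of −0.38, −0.13, −0.39 and −0.16. A pairing of the embryos by litter was not tested. With the replicate number as a block, 0 genes passed the adjusted threshold, 1 was lower and 0 were higher at the unadjusted one, 26 were negative, and the fibrillar median was −0.02. Dim genes, 10 of 44, limit what the arrays can show.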
